A study of Mus musculus with 6 samples.

Results

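Toll-like receptors are the germline-encoded sensors with which myeloid and B cells recognise microbial products. The genes described here are 10 mouse members of the family, taken by gene symbol from a table of 55335 genes, and all 10 passed the filter on low counts. A total of 5 encode receptors of the plasma membrane (Tlr1, Tlr2, Tlr4, Tlr5 and Tlr6) and 5 encode receptors of endosomes (Tlr3, Tlr7, Tlr8, Tlr9 and Tlr13). RNA was sequenced from CD11b+ cells sorted from the spleens of wild-type (WT) mice, all of which had a myocardial infarction (MI). In 3 libraries infarction was the only treatment (MI), and in the other 3 it was combined with renal denervation, a procedure that interrupts the nerve supply of the kidneys (MI+RDN). The table holds no library from mice without an infarct. The labels do not give the time after infarction, the age of the mice or the number of mice behind each library. The design text calls the 3 libraries of a group biological replicates, and p-values measure the spread among the 6 libraries only.

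The surface receptors bind lipids, lipoproteins and flagellin outside the cell. The endosomal receptors bind nucleic acids that reach the endosome, and they depend on the chaperone Unc93b1 to get there. All but Tlr3 signal through the adaptor Myd88, and Tlr3 and Tlr4 use the adaptor Ticam1 (TRIF). In the mouse spleen Tlr9 is known from B cells and dendritic cells, Tlr3 from cross-presenting dendritic cells, and Tlr2 and Tlr4 from neutrophils and monocytes.

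Library totals ranged from 21663440 to 28013900 counts. Itgam, which encodes CD11b, stood at 1133 ± 150 CPM with MI alone and 1598 ± 95.2 with MI+RDN (SD, n = 3), so the marker of the sort was abundant in both groups. Every MI+RDN library (1489 to 1666 CPM) lay above every MI library (1011 to 1301 CPM), as in 12.4% of all tested genes. The log2 fold change of Itgam was 0.50 (95% interval 0.18 to 0.81), with an edgeR Benjamini-Hochberg adjusted p of 0.109. CPM is a gene's count relative to the library total, here scaled with TMM factors, which adjust for differences in composition between libraries. Markers of other cells were present as well. The summed level of 10 B cell markers ran from 598 to 873 CPM in MI and from 310 to 488 CPM in MI+RDN, and that of 8 T cell markers from 60.9 to 81.6 and from 27.6 to 42.9 CPM. No tested marker of either list was at 0 in any library. In bulk RNA, fewer cells of a type and less RNA per cell cannot be told apart.

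Renal denervation went with a lower level of 1 receptor gene of the 10, Tlr9, and with no other change past the threshold in the family. Tlr9 fell 1.49-fold, from 52.6 ± 0.50 CPM in MI to 35.2 ± 2.38 CPM in MI+RDN (SD, n = 3). The other 9 receptors did not pass an adjusted p of 0.05, and their log2 fold changes ran from -0.64 for Tlr3 to 0.40 for Tlr4. By edgeR's quasi-likelihood test with Benjamini-Hochberg adjustment over the 14849 genes tested, 1.01% of all genes passed in either direction and 0.714% passed as lower, against 1 of the 10 receptors. In 3 of the receptors every MI+RDN library lay below every MI library (Tlr1, Tlr3 and Tlr9), and in 1 (Tlr2) every one lay above, against 13.7% and 12.4% of all tested genes (26.2% in either direction). At an unadjusted p under 0.05 there were 4 of the 10, against 19.9% of all tested genes.

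**Figure D1:**
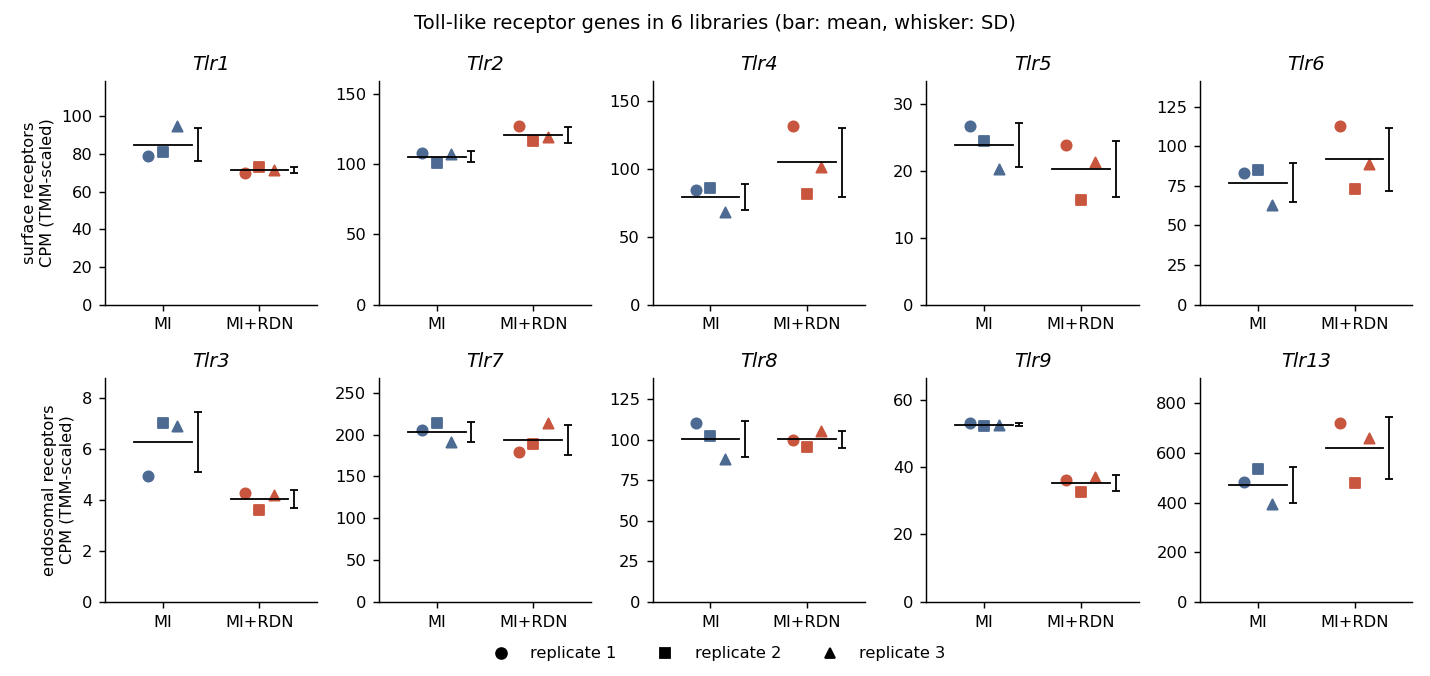
TMM-scaled CPM (vertical axes, from 0) of the 10 receptor genes in the MI and MI+RDN libraries, surface receptors above and endosomal receptors below. Points are libraries, the horizontal bar is the mean and the whisker the SD (n = 3); the Tlr9 points of MI lie between 52.1 and 53.1 CPM and those of MI+RDN between 32.6 and 37.1.

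Tlr9 encodes the endosomal receptor for DNA with unmethylated CpG. Its level was 53.1, 52.1 and 52.5 CPM in MI replicates 1 to 3, and 36.1, 32.6 and 37.1 CPM in MI+RDN replicates 1 to 3. The MI libraries lay within about 1 CPM of each other, and all 3 MI+RDN libraries lay well below them. The log2 fold change was -0.58 (SE 0.0879, 95% interval -0.78 to -0.37; edgeR, Benjamini-Hochberg adjusted p = 0.0401). The size held when any 1 library was left out (log2 fold change -0.63 to -0.54), but the call did not (adjusted p = 0.0599 to 0.131 in these smaller fits). With all 6 libraries the call was also lost with no filter on low counts (adjusted p = 0.0793), and the adjusted p was 8.89e-05 by the DESeq2 Wald test. By the DESeq2 test 1165 of all tested genes passed, against 150 by edgeR.

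The window before the Tlr9 start is shown because Tlr9 was the 1 receptor past the threshold, and those of Tlr3 and Tlr2 as examples of receptors whose libraries also did not overlap, in the same and in the opposite direction. Tlr1, whose libraries did not overlap either, has 2 windows in the table and is not shown. Each is the 250 bases upstream of the annotated start, 5′ to 3′ on the strand of the gene, from RefSeq on build GRCm38.p6. The windows lie at chr9:106222348-106222597 (plus strand) for Tlr9, chr8:45410381-45410630 (minus strand) for Tlr3 and chr3:83841609-83841858 (minus strand) for Tlr2. Capitals mark matches to 6 motifs searched on both strands: the octamer ATGCAAAT, an ETS and PU.1 core GAGGAAG, AP-1 as TGANTCA, a GC box GGGCGG, and NF-kB and IRF motifs given by name.
Tlr9: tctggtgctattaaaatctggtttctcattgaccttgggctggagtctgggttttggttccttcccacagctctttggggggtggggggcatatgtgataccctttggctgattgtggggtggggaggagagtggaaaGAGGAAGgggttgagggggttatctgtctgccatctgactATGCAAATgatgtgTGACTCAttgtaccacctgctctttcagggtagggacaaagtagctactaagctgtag
Tlr3: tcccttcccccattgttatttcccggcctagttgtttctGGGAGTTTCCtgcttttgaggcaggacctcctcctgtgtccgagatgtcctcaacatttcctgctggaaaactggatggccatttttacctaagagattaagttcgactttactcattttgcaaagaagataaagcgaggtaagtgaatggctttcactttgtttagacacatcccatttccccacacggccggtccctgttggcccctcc
Tlr2: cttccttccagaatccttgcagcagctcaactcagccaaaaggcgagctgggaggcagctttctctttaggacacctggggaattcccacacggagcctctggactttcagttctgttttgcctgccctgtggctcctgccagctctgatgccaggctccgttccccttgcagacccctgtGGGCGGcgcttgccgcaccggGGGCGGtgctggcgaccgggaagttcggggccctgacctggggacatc

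The Tlr9 window held the octamer, the recognition sequence of POU-domain factors such as Oct-2 of B cells, 72 bases before the start. It also held the ETS and PU.1 core, named for the myeloid and B cell factor PU.1, 112 bases before the start and the AP-1 letters 58 bases before it. Among 32841 windows of the same length the octamer occurred in 1.6%, the ETS and PU.1 core in 10.6% and the AP-1 letters in 6.75%. Promoter entries were found for 8 of the 10 receptors. Among these 8 the octamer and the AP-1 letters occurred in Tlr9 only, and the ETS and PU.1 core occurred in Tlr1, Tlr9 and Tlr13. The Tlr3 window held the NF-kB letters that were searched (1.21% of all windows) 211 bases before the start. That search used a fixed pattern of letters, and variants of the NF-kB motif were not searched. The lack of a marked match in the other windows, that of Tlr2 included, therefore does not show that they lack an NF-kB site. The Tlr2 window held 2 GC boxes (32.7% of all windows), as did that of Tlr5, and a window of Tlr6 held 2 overlapping IRF matches (2.98% of all windows). The motifs were chosen after the promoter sequences had been read, so the shares among all windows are no test of these windows. These matches describe letters in the windows and do not show that a factor binds there.

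Tlr3 encodes the receptor for double-stranded RNA and had the lowest level of the 10. It stood at 4.94, 7.03 and 6.91 CPM in MI replicates 1 to 3 and at 4.27, 3.62 and 4.21 CPM in MI+RDN replicates 1 to 3. MI replicate 1 lay close to the MI+RDN libraries. The log2 fold change was -0.64 (SE 0.208, 95% interval -1.12 to -0.16), short of the threshold (edgeR, Benjamini-Hochberg adjusted p = 0.149). An antisense gene, Gm45542, overlaps Tlr3 on the opposite strand, and the strand setting of the counting is not given in the sources used here. Reads of both genes may therefore be mixed.

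The receptors for single-stranded RNA, Tlr7 and Tlr8, had fold changes near 0 with overlapping libraries. Tlr7 stood at 206, 214 and 191 CPM in MI replicates 1 to 3 and at 179, 189 and 214 CPM in MI+RDN replicates 1 to 3. The lowest and the highest MI+RDN libraries lay at or beyond the ends of the MI range. Its log2 fold change of -0.067 had a 95% interval from -0.30 to 0.16 (edgeR, Benjamini-Hochberg adjusted p = 0.745), and leaving out a library gave values between -0.16 (MI+RDN replicate 3) and -0.0092 (MI+RDN replicate 1). Tlr8 stood at 110, 103 and 88.0 CPM in MI and at 99.8, 95.2 and 105 CPM in MI+RDN, with all MI+RDN libraries inside the MI range. Its log2 fold change was -0.0017 with a 95% interval from -0.24 to 0.24, and its sign turned in 9 of 14 alternatives.

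Tlr13 encodes the mouse receptor for bacterial 23S ribosomal RNA. It stood at 484, 537 and 394 CPM in MI replicates 1 to 3 and at 721, 480 and 661 CPM in MI+RDN replicates 1 to 3. MI+RDN replicates 1 and 3 lay above all MI libraries, and MI+RDN replicate 2 lay inside the MI range. The log2 fold change of 0.40 did not pass (95% interval -0.018 to 0.81; edgeR, Benjamini-Hochberg adjusted p = 0.269). Leaving out 1 library moved it both ways, to 0.53 without MI+RDN replicate 2 (adjusted p = 0.107) and to 0.28 without MI+RDN replicate 1 (adjusted p = 0.525) or without MI replicate 3 (adjusted p = 0.554).

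Among the surface receptors, Tlr4 encodes the receptor for bacterial lipopolysaccharide. Its level was 84.1, 86.0 and 68.5 CPM in MI replicates 1 to 3 and 132, 81.2 and 102 CPM in MI+RDN replicates 1 to 3. The pattern over libraries was that of Tlr13, with MI replicate 3 lowest, MI+RDN replicate 1 highest and MI+RDN replicate 2 inside the MI range. The log2 fold change of 0.40 did not pass (95% interval -0.011 to 0.81; edgeR, Benjamini-Hochberg adjusted p = 0.263). It rested in part on MI+RDN replicate 1, without which it was 0.21 (adjusted p = 0.538).

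Tlr2 encodes the receptor that pairs with the products of Tlr1 and Tlr6 to bind bacterial lipopeptides. Tlr2 stood at 108, 101 and 107 CPM in MI replicates 1 to 3 and at 127, 116 and 119 CPM in MI+RDN replicates 1 to 3. The groups did not overlap, but the difference was small, with a log2 fold change of 0.20 (SE 0.0821; edgeR, Benjamini-Hochberg adjusted p = 0.233), and it was 0.060 without scaling factors. Tlr1 went the other way, at 78.8, 81.0 and 94.9 CPM in MI and 70.1, 73.0 and 71.6 CPM in MI+RDN. Its groups did not overlap either, and its log2 fold change of -0.25 missed the threshold (SE 0.0958; edgeR, Benjamini-Hochberg adjusted p = 0.207); leaving out MI replicate 3 gave -0.16. Tlr6 stood at 83.2, 85.0 and 63.0 CPM in MI and at 113, 73.2 and 88.8 CPM in MI+RDN. Its groups overlapped, and its log2 fold change of 0.25 was short of the threshold (edgeR, Benjamini-Hochberg adjusted p = 0.469); leaving out MI+RDN replicate 1 gave 0.077, and leaving out MI replicate 3 gave 0.12.

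Tlr1 and Tlr6 are neighbouring genes on chromosome 5 with similar sequence. Of the distinct stretches of 100 bases in their GENCODE M21 transcripts, they shared 259, which is 7.89% of those of Tlr1 and 7.09% of those of Tlr6. How the counting treated reads from such stretches is not given, so a part of the counts of both genes may be uncertain. Outside this pair and the overlap of Tlr3 with Gm45542, none of the 10 shared a stretch of that length with another gene.

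Tlr5 encodes the flagellin receptor. It stood at 26.8, 24.4 and 20.3 CPM in MI replicates 1 to 3 and at 23.9, 15.7 and 21.4 CPM in MI+RDN replicates 1 to 3. MI+RDN replicate 2 was the lowest of all 6, and the other MI+RDN libraries lay inside the MI range. The log2 fold change of -0.23 did not pass (95% interval -0.64 to 0.18; edgeR, Benjamini-Hochberg adjusted p = 0.509). Leaving out MI+RDN replicate 2 gave -0.090, leaving out MI replicate 1 gave -0.14 and leaving out MI+RDN replicate 1 gave -0.36.

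**Figure D2:**
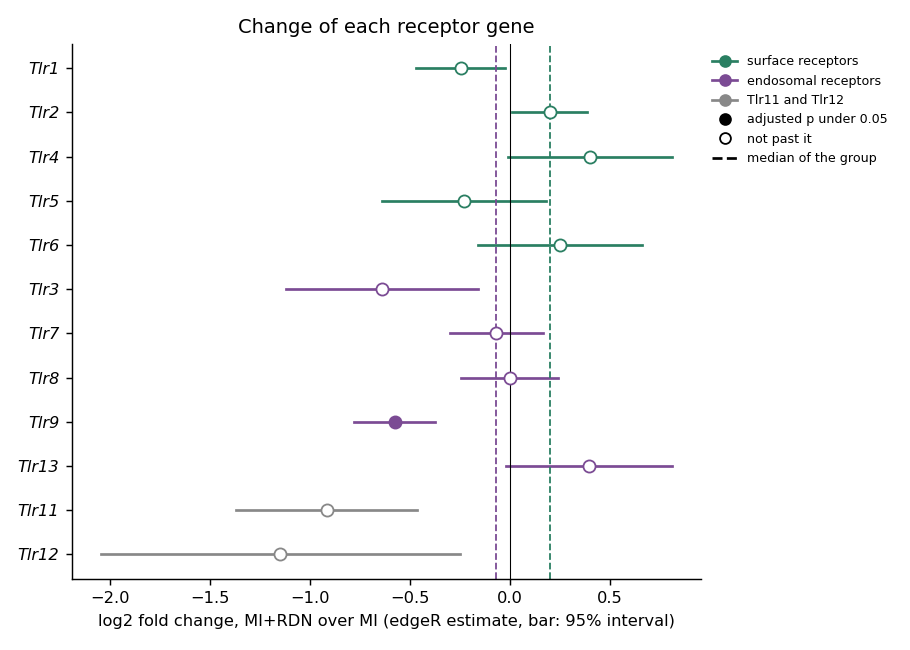
Log2 fold change of MI+RDN over MI for the 10 receptor genes and for Tlr11 and Tlr12 (horizontal axis), with bars for the 95% interval and dashed lines for the medians of the surface (0.20) and endosomal (-0.07) receptors. The filled point is Tlr9, the 1 gene shown with an adjusted p under 0.05.

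Set side by side, surface and endosomal receptors had median log2 fold changes of 0.20 and -0.067, against 0.0080 over all tested genes. Of the 5 surface genes 3 had positive and 2 negative fold changes, and none passed. Of the 5 endosomal genes 1 had a positive and 4 had negative fold changes, and Tlr9 passed. Each group held members that went either way, with Tlr4 and Tlr1 at the ends of the surface range and Tlr13 and Tlr3 at those of the endosomal range. Without scaling factors, which moved the median of all genes to -0.13, the medians were 0.060 and -0.20. The surface median fell to 0.077 when MI+RDN replicate 1 was left out and to 0.12 when MI replicate 3 was. The endosomal median was -0.0092 when MI+RDN replicate 1 was left out, -0.029 for MI replicate 2, -0.11 for MI replicate 3 and -0.16 for MI+RDN replicate 3. The location of the receptor therefore did not sort the genes by direction. Per library, the median of the surface genes relative to their 6-library means ran from -0.099 to 0.034 in MI and from -0.15 to 0.18 in MI+RDN. That of the endosomal genes ran from -0.057 to 0.11 in MI and from -0.16 to 0.077 in MI+RDN, and the 2 groups overlapped for both locations.

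Ratios of 2 receptors within a library do not depend on scaling between libraries. The log2 ratio of Tlr9 to Tlr7 was -1.95, -2.04 and -1.86 in MI replicates 1 to 3 and -2.31, -2.54 and -2.53 in MI+RDN replicates 1 to 3, so the groups did not overlap. The difference was -0.51, with p = 0.10 by the exact two-sided permutation test, the smallest that 3 against 3 libraries allow, and 0.30 after Benjamini-Hochberg adjustment over the 3 ratios tested. The log2 ratio of Tlr7 to Tlr8 was 1.02 ± 0.112 with MI alone and 0.95 ± 0.0935 with MI+RDN (SD, n = 3; exact permutation p = 0.40). That of Tlr1 to Tlr6 was 0.15 ± 0.384 with MI alone and -0.33 ± 0.343 with MI+RDN (SD, n = 3; exact permutation p = 0.30), with overlapping libraries. The difference of -0.48 shrank to -0.26 when MI replicate 3 was left out and to -0.31 when MI+RDN replicate 1 was. For Tlr7 to Tlr8 the difference of -0.073 lay between -0.14 (MI replicate 1 left out) and -0.020 (MI+RDN replicate 1 left out).

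Levels of different genes were compared as TPM, a length-corrected unit of counts per kilobase of exon scaled to the same sum in every library. In MI, Tlr13 was the highest of the family at 336 ± 53.8 TPM (SD, n = 3), which was 36% of the summed TPM of the 10 genes. Tlr7 followed at 153 ± 10.1 TPM, then Tlr2 at 107 ± 4.54. Tlr8 (74.2 to 95.4 TPM) and Tlr1 (73.0 to 85.7 TPM) overlapped, and so did Tlr9 (45.6 to 47.3 TPM) and Tlr4 (37.2 to 47.4 TPM), with Tlr6 (51.1 to 69.7 TPM) between these pairs. Tlr5 (12.8 to 17.3 TPM) and Tlr3 (2.94 to 4.13 TPM) were lowest. By their means in MI+RDN, the same genes held the first 4 and the last 2 places, and Tlr13 took 42.4% of the summed TPM. The MI+RDN ranges of Tlr8 (71.2 to 76.8 TPM) and Tlr6 (52.7 to 83.4 TPM) overlapped. Tlr9, at 25.1 to 28.6 TPM, then lay below all Tlr4 values (39.2 to 65.3 TPM), whereas in MI the ranges of these 2 genes overlapped.

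**Figure D3:**
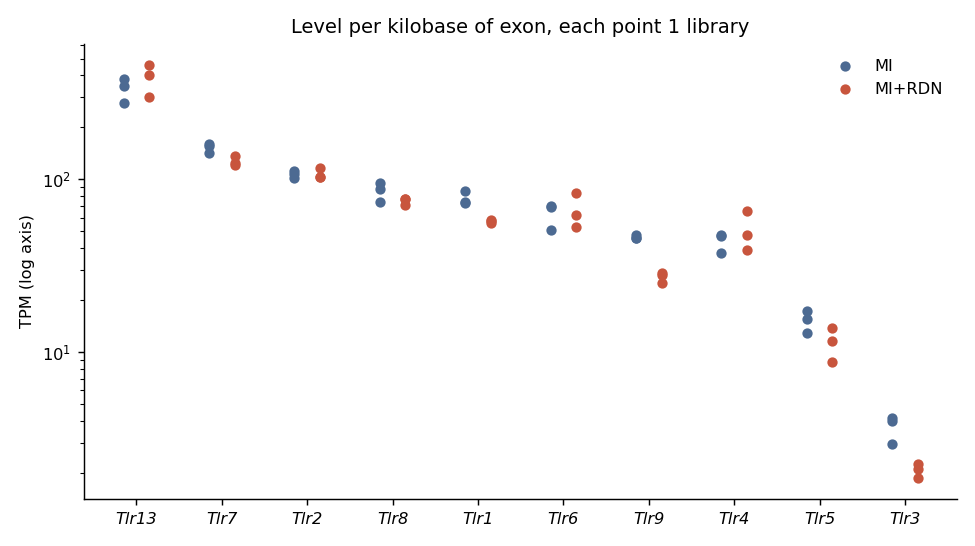
TPM of the 10 receptor genes (vertical log axis), ordered by their mean in MI, with 1 point per library and a colour per group. Tlr13 lies highest (276 to 461 TPM) and Tlr3 lowest (1.86 to 4.13 TPM) in all 6 libraries.

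Over libraries, Tlr4, Tlr6 and Tlr13 shared an order that the groups alone do not give. On the log2 CPM scale, after subtraction of each gene's mean, MI+RDN replicate 1 was highest for all 3 (0.55 for Tlr4, 0.44 for Tlr6 and 0.43 for Tlr13) and MI replicate 3 lowest (-0.40, -0.40 and -0.44). MI+RDN replicate 2 stood at -0.15, -0.18 and -0.16, below its own group. Of the 10 neutrophil markers 7 were highest in that library, among them Ly6g at 107, 171 and 103 CPM in MI+RDN replicates 1 to 3. Cxcr2 and Csf3r, receptor genes of mature neutrophils, were chosen after their values were seen and were lowest of their group there, with 2062, 1241 and 1925 CPM of Cxcr2 and 7667, 4362 and 7781 CPM of Csf3r in MI+RDN replicates 1 to 3. The summed level of the 10 markers was 30257, 36811 and 25891 CPM in MI+RDN replicates 1 to 3 and 13181 to 20204 CPM in MI, and the median log2 fold change of the list was 1.0. All 10 had positive fold changes and 6 lay higher without overlap, against 12.4% of all tested genes. Of these, Ly6g and Retnlg passed as higher, 2 of 10 markers against 0.296% of all tested genes. The part of neutrophil content in the Tlr4, Tlr6 and Tlr13 values was not tested.

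**Figure D4:**
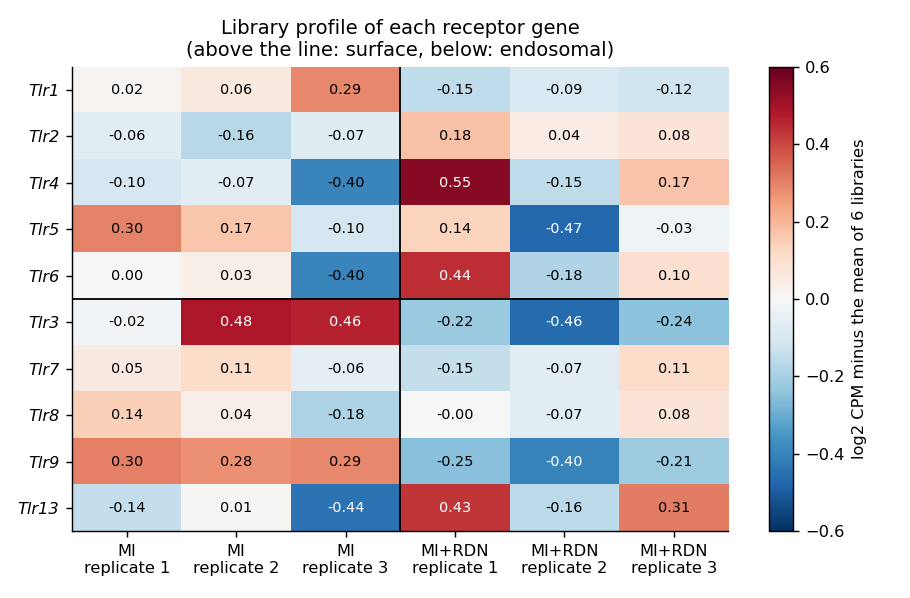
Log2 CPM of each receptor gene minus its mean over the 6 libraries, with libraries as columns and genes as rows, surface receptors above the line. Tlr9 is positive in the 3 MI libraries (0.28 to 0.30) and negative in the 3 MI+RDN libraries (-0.40 to -0.21), whereas Tlr4, Tlr6 and Tlr13 are highest in MI+RDN replicate 1.

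The genes whose library profile was nearest to that of Tlr9 were Atr, Slc9a9 and Usp6nl, out of 9344 protein-coding genes with a mean of at least 5 CPM. Nearness was the root mean square difference of log2 CPM, centred on the mean of the same 6 libraries, and was 0.0332 for Atr, 0.0334 for Slc9a9 and 0.0564 for Usp6nl. Atr encodes a DNA damage checkpoint kinase, Slc9a9 an endosomal sodium-proton exchanger and Usp6nl a GTPase-activating protein for Rab proteins. Atr stood at 23.6 ± 0.791 CPM with MI alone and 16.1 ± 0.973 with MI+RDN, Slc9a9 at 35.2 ± 1.01 and 24.2 ± 1.80, and Usp6nl at 41.1 ± 0.533 and 25.8 ± 2.62 (SD, n = 3). Only Usp6nl of these also passed (edgeR, Benjamini-Hochberg adjusted p = 0.0401).

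Markers of cells known to carry Tlr9 or Tlr3 had mostly negative fold changes beside them. All 10 B cell markers lay lower in MI+RDN without overlap, against 13.7% of all tested genes, with a median log2 fold change of -0.97. By edgeR 0 of 10 passed, and 10 of 10 had an unadjusted p under 0.05. The summed B cell level was lowest in MI+RDN replicates 1 and 2 (323 and 310 CPM) and higher in replicate 3 (488 CPM), while Tlr9 was 36.1, 32.6 and 37.1 CPM in the same libraries. In MI the B cell sum was 691, 598 and 873 CPM, and Tlr9 lay within 52.1 to 53.1 CPM. Of 6 plasmacytoid dendritic cell markers tested none passed, and the median log2 fold change was -0.74. Of these, 5 had negative fold changes and 3 lay lower without overlap. Their summed level was 143 to 156 CPM in MI and 114 to 145 CPM in MI+RDN. The most abundant were Tcf4 and Bst2, named after their values were seen, with log2 fold changes of -0.25 and 0.060. Klk1 and Cox6a2 of that list were below the filter and at 0 in some libraries. Of 7 conventional DC1 markers none passed, 6 had negative fold changes and 5 lay lower without overlap. Their median log2 fold change was -0.81, with sums of 336 to 358 and 259 to 300 CPM. Most abundant was Wdfy4, named after its values were seen, with a log2 fold change of -0.28. All 8 conventional DC2 markers had negative fold changes, with a median of -0.83, and 3 fell (Cd4, Cd209a and Clec10a), against 0.714% of all tested genes. Their sums were 608 to 812 CPM in MI and 354 to 471 CPM in MI+RDN. Fold changes of T cell and red pulp macrophage markers were mostly negative too. All 8 T cell markers lay lower without overlap, with a median log2 fold change of -1.15, and Cd3d was the 1 that passed. Of 8 red pulp macrophage markers 7 had negative fold changes and 5 lay lower without overlap, with a median of -0.73, and none passed. Their sums overlapped, at 1144 to 1231 and 929 to 1240 CPM. Slc40a1 and Hmox1, named after their values were seen, were the most abundant of these markers, with log2 fold changes of 0.27 and -0.00068. The part of these cell types in the Tlr9 and Tlr3 values was not tested.

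Monocyte and NK cell lists had medians near 0 (-0.050 for Ly6C-high monocytes, 0.027 for Ly6C-low monocytes and -0.067 for NK cells). For 8 Ly6C-high monocyte markers the sums overlapped (7226 to 8508 CPM in MI, 6083 to 9057 in MI+RDN). Of these 8, 4 had positive and 4 negative fold changes, and only Ly6c2 passed, as higher. For 8 Ly6C-low monocyte markers the sums were 1886 to 1999 and 1847 to 2020 CPM. Of these 8, 5 had positive and 3 negative fold changes, and only Pglyrp1 passed, as higher. Each is 1 of 8 markers, against 0.296% of all tested genes that passed as higher. For 8 NK cell markers the sums were 205 to 225 and 161 to 238 CPM and none passed.

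Mouse Tlr11 and Tlr12, receptors for protozoan profilin that lie outside the 10, were low and had negative fold changes. They were not part of the comparison of surface with endosomal receptors. Tlr11 stood at 9.33, 8.66 and 10.6 CPM in MI replicates 1 to 3 and at 4.66, 4.27 and 6.23 CPM in MI+RDN replicates 1 to 3, without overlap. Its log2 fold change of -0.92 missed the threshold (SE 0.196, edgeR Benjamini-Hochberg adjusted p = 0.0671), but it passed without scaling factors (0.0393) and by the DESeq2 Wald test (0.00245). Over all tested genes 475 and 1165 passed under these 2 settings, against 150 in the main test. Tlr12 stood at 2.07 ± 0.934 CPM with MI alone and 0.936 ± 0.195 with MI+RDN (SD, n = 3; edgeR, Benjamini-Hochberg adjusted p = 0.164); its log2 fold change of -1.15 was -0.72 without MI replicate 3.

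Around the receptors, 1 gene of Toll-like receptor signalling passed the threshold. Over 7 lists of co-receptors, chaperones, endosomal processing, adaptors, kinases, inhibitors and induced targets, the list medians lay between -0.14 and 0.10 on the log2 scale, near the 0.0080 of all genes. That gene was Nos2, an induced target that encodes the inducible nitric oxide synthase. It rose 7.24-fold from a low level, with 0.852, 0.406 and 0.523 CPM in MI replicates 1 to 3 and 2.93, 5.08 and 4.99 CPM in MI+RDN replicates 1 to 3 (edgeR, Benjamini-Hochberg adjusted p = 0.0316; 0.0526 to 0.120 with 1 library left out and 0.0551 with no filter). It was 1 of the 73 genes tested over the 7 lists, or 1.37%, near the 1.01% of all tested genes that passed in either direction.

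**Figure D5:**
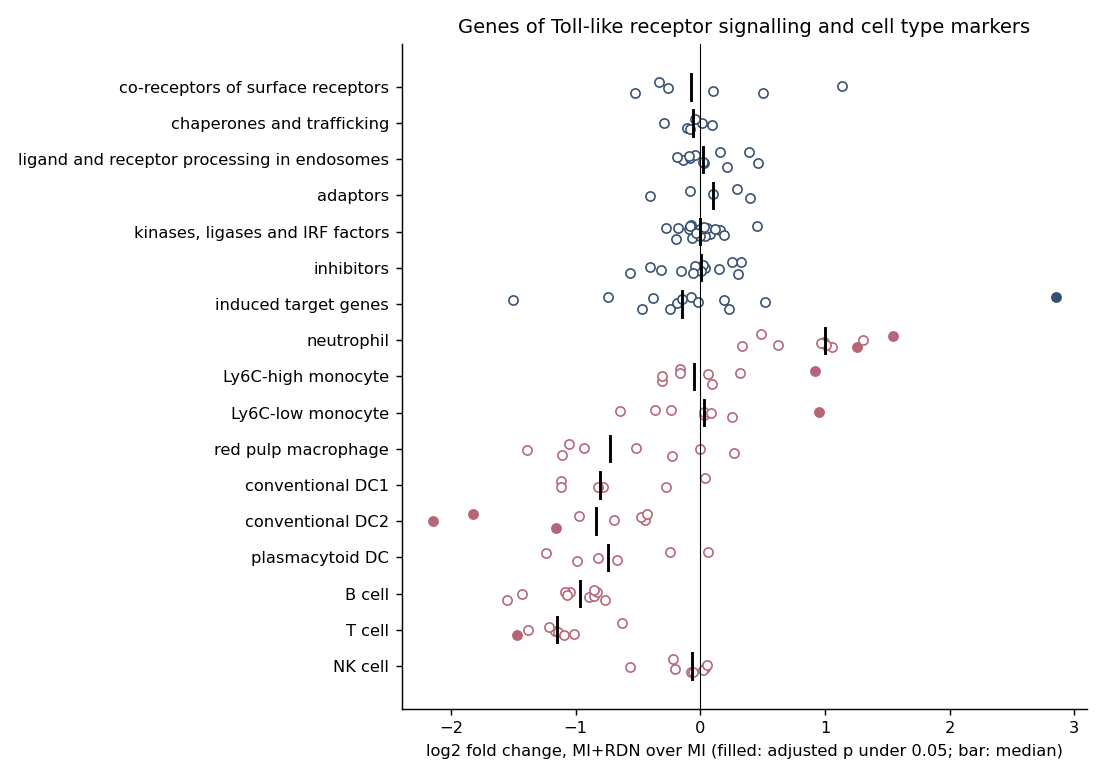
Log2 fold change of MI+RDN over MI (horizontal axis) for each tested gene of the signalling lists (blue) and the cell type marker lists (red), with a black bar at the median and filled points at an adjusted p under 0.05. The signalling lists centre near 0, between -0.14 and 0.10, whereas the B cell markers centre at -0.97 and the neutrophil markers at 1.0.

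Of 6 co-receptor genes none passed. Cd14, which hands lipopolysaccharide to the Tlr4 complex, was 84.7, 84.6 and 69.1 CPM in MI replicates 1 to 3 and 115, 104 and 119 CPM in MI+RDN replicates 1 to 3. The groups did not overlap, and the log2 fold change of 0.51 missed the threshold (SE 0.109; edgeR, Benjamini-Hochberg adjusted p = 0.0677). Cd180, a Toll-like receptor homologue of B cells and dendritic cells, was 97.6, 98.8 and 128 CPM in MI and 79.4, 72.3 and 73.2 CPM in MI+RDN. It too missed the threshold, with a log2 fold change of -0.53 (SE 0.121, edgeR Benjamini-Hochberg adjusted p = 0.0763). Both Cd14 and Cd180 passed by the DESeq2 Wald test (0.00428 and 0.00513), by which 1165 of all tested genes passed, against 150 by edgeR.

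Of 6 tested chaperone and trafficking genes none passed, and the 7th listed, Tasl, had no match by symbol. Unc93b1, the chaperone of the endosomal receptors, was named after its values were seen. It stood at 585 ± 30.7 CPM with MI alone and 590 ± 48.3 with MI+RDN (SD, n = 3). Its log2 fold change was 0.012 with a 95% interval from -0.24 to 0.26, and its libraries overlapped. Slc15a4, an endosomal transporter needed for Tlr7 and Tlr9 signalling, was 81.1 ± 10.7 CPM with MI alone and 66.1 ± 4.80 with MI+RDN (SD, n = 3; edgeR, Benjamini-Hochberg adjusted p = 0.209). Ap3b1, a subunit of the adaptor complex that sorts endosomal cargo, was 102 ± 7.92 and 108 ± 2.43 CPM. Of 11 genes that process ligands or receptors in endosomes none passed. Ctsl, a lysosomal cathepsin, was 35 ± 2.99 CPM with MI alone and 45.8 ± 5.74 with MI+RDN (SD, n = 3; edgeR, Benjamini-Hochberg adjusted p = 0.136), and Ctsk was 1.51 ± 0.200 and 2.08 ± 0.376 CPM.

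Of 5 tested adaptor genes none passed, and the 6th, Sarm1, was below the filter. Myd88 was 315, 310 and 297 CPM in MI replicates 1 to 3 and 463, 325 and 424 CPM in MI+RDN replicates 1 to 3, with MI+RDN replicate 2 closest to MI, as for Tlr4 and Tlr13. Its log2 fold change of 0.39 missed the threshold (SE 0.137; edgeR, Benjamini-Hochberg adjusted p = 0.171). Ticam2, the bridging adaptor between Tlr4 and Ticam1, was 57.9, 58.9 and 67.7 CPM in MI and 52.7, 46.1 and 40.7 CPM in MI+RDN. The groups did not overlap, and its log2 fold change of -0.40 missed the threshold (SE 0.119; edgeR, Benjamini-Hochberg adjusted p = 0.127).

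Of 19 kinases, ligases and IRF factors none passed. The kinase genes Irak1 and Irak2, which act after Myd88, had the lowest p. Irak1 was 123 ± 6.0 CPM with MI alone and 107 ± 6.54 with MI+RDN, and Irak2 was 63.6 ± 2.27 and 52.6 ± 5.13 (SD, n = 3; edgeR, Benjamini-Hochberg adjusted p = 0.256 and 0.177). Of 13 inhibitor genes none passed. Tnfaip3, which encodes the deubiquitinase A20, was 103, 112 and 95.8 CPM in MI replicates 1 to 3 and 64.4, 76.2 and 68.9 CPM in MI+RDN replicates 1 to 3. Every MI+RDN library lay below every MI library. The log2 fold change was -0.57 (SE 0.101; edgeR, Benjamini-Hochberg adjusted p = 0.0511), and the adjusted p fell under 0.05 in 4 of the 8 alternatives that kept all libraries and in none of the 6 that left 1 out. Tollip, an adaptor that restrains the Irak kinases, was 65.5 ± 6.84 CPM with MI alone and 81.9 ± 2.26 with MI+RDN (SD, n = 3; edgeR, Benjamini-Hochberg adjusted p = 0.133).

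Of 17 induced target genes 13 were tested, and Nos2 was the 1 that passed. The other 4, Il6, Il10, Ifnb1 and Cxcl1, were below the filter, and Ifnb1 had 0 counts in every library. Of the 13 tested, 4 had positive and 9 had negative fold changes, with a median of -0.14.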

How the data were processed

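RNA of splenic CD11b+ cells was sequenced in 6 libraries, from RNA taken with a Qiagen kit and strand-specific TruSeq libraries read on a NovaSeq instrument, per the labels' protocols. The submitters' processing notes name FastQC 0.11.2, STAR and build GRCm39. No source used here names the counting tool, the annotation release or the strand setting. Whole-number counts per Ensembl gene were deposited by the authors, not normalised. Symbols came from a GRCm38 annotation by gene ID for 55154 of 55335 genes, exon lengths from GENCODE M21, and promoter windows from RefSeq on GRCm38.p6.

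The test was that of edgeR 4.0.16 under R 4.3.3 (filterByExpr, 14849 genes kept; TMM; quasi-likelihood F test; Benjamini-Hochberg adjustment at 0.05), without covariates. Each SE was derived from the log2 fold change and its F statistic, and intervals are 95%. Libraries within a group varied by 20.7% (edgeR's common biological coefficient of variation). A prior count of 2 entered the log2 CPM of profiles, and ratios added 0.5 to each count. The text names all 10 receptors, Itgam, Tlr11, Tlr12, up to 4 passing genes of each signalling list by lowest p (or the 2 of lowest p) and the 3 nearest profiles to a passing receptor. Genes outside this rule are marked, apart from list members named as passing, not tested or not matched. The receptors and lists were chosen with earlier results of these data known, and the motifs after the promoter sequences had been read. Alternatives used DESeq2 1.42.0, limma 3.58.1, other scaling factors and filters, a replicate block and each library left out.

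On simulated data for the 14849 genes of this comparison, 48.9% of 2-fold and 84.6% of 4-fold changes were recovered by edgeR, with 6.84% false calls. Changes of the size seen in the receptors were not simulated.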

Additional observations from a re-analysis of the deposited data

How the results depend on the processing

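All 10 receptors except Tlr8 kept the sign of their fold change under all 14 alternatives. Tlr8, at -0.0017, turned positive in 9 of them: 0.0027 with DESeq2 size factors, 0.0060 with no filter, 0.0027 by the DESeq2 Wald test, 0.0028 by limma-voom, 0.0030 with the replicate block, and, within a range of -0.088 to 0.073 with 1 library left out, the 4 fits without MI replicate 1 (0.073), MI replicate 2 (0.016), MI+RDN replicate 1 (0.0053) or MI+RDN replicate 2 (0.018). Ap3b1 turned to -0.043 without scaling factors. The cause was not tested. Tlr9 was past the threshold in 6 of 8 alternatives with all libraries and in 0 of 6 with 1 left out.

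The number of receptors past the threshold was 1, and 0 with no filter, with the replicate block and without any 1 library. The surface median was 0.060 and the endosomal median -0.20 without scaling factors. Genes past the threshold over the whole table were 150 (44 higher, 106 lower). They were 475 (413 lower) without scaling factors, 21 (7 and 14) with no filter, 290 (67 and 223) at a mean of at least 5 CPM, 1165 (561 and 604) by the DESeq2 Wald test, 111 (29 higher) by limma-voom and 87 (23 and 64) with the replicate block. Without MI replicates 1 to 3 in turn they were 18, 4 and 0, and without MI+RDN replicates 1 to 3 they were 0, 67 and 36, a range from 0 to 67, higher from 0 to 30 and lower from 0 to 37; the counts of 0 went with 2084 genes (without MI replicate 3) and 2323 genes (without MI+RDN replicate 1) at an unadjusted p under 0.05.

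Libraries with the same replicate number did not deviate together: the correlations of their deviations from the group means over 10239 genes were 0.035, -0.057 and 0.055 for numbers 1 to 3. The numbers were therefore not taken as pairs. With the replicate block the adjusted p was 0.0751 for Tlr9 and 0.0589 for Nos2 by edgeR. Nos2 was below the filter at a mean of at least 5 CPM and has no value there. For the ratios, the replicate block gave differences of -0.48 for Tlr1 to Tlr6, -0.073 for Tlr7 to Tlr8 and -0.51 for Tlr9 to Tlr7, with a smallest possible p of 0.25.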
